A study of Rattus norvegicus with 24 samples.

Results

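The mature arms of microRNA 21, rno-miR-21-5p and rno-miR-21-3p, were measured in lung tissue of Fischer-344 rats after inhalation of the aldehyde hexanal or of filtered clean air. Both arms were taken by name from the 719 rat miRNAs of the array, so the account covers 2 members of 719. The control group breathed filtered clean air, and the exposed groups breathed hexanal at 600, 1000 or 1500 ppm for 5 weeks, on 5 days per week and for 4 h per day. Each of the 4 groups held 6 rats, 3 males and 3 females, which were 7 to 8 weeks old and had been acclimated for 5 days. The titles state doses in ppm, but the protocol puts those numbers in milligrams per cubic metre, so ppm serves here as the name of a group. Each rat had its own single-colour array of lung RNA (100 ng, Cy3), so the replicates are animals. The arrays read whole lung, in which fewer cells of a type and less RNA per cell cannot be told apart.

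A miRNA gene is transcribed as a hairpin, from which the enzymes Drosha and Dicer cut a short duplex. One strand of the duplex is usually loaded into an Argonaute protein, where bases 2 to 8, the seed, pair with target messenger RNAs, and the other strand is largely degraded. The 5p strand of miR-21 is the one that is loaded, and it is known as an abundant miRNA that rises in injured, inflamed and fibrotic tissue, the lung included, while the 3p strand is its low passenger.

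Both arms were matched by name in the RefSeq table of rat miRNAs (assembly GRCr8), which held 641 of the 719 array names. The mature sequences are shown because the comparisons turn on the 2 arms, written 5′ to 3′ with the seed in capitals.
rno-miR-21-5p: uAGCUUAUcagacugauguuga
rno-miR-21-3p: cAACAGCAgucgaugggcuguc
The arms come from 1 hairpin of 92 bases, the gene Mir21 on the minus strand of chromosome 10 (chr10:71902600-71902691), shown with the arms in capitals, the 5p arm first.
Mir21 hairpin: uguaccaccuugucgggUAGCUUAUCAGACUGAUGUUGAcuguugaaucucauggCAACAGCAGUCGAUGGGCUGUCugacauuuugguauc
The 5p arm lies at chr10:71902653-71902674 and the 3p arm at chr10:71902615-71902636, each 22 bases long, with 16 bases between them. In the fold of lowest predicted energy (-42.6 kcal per mol), 19 of the 22 bases of the 5p arm pair with bases of the 3p arm, including all 7 seed bases. The seeds differ between the arms (AGCUUAU and AACAGCA), and no other mature miRNA among the 693 of the table shares either. The nearest protein-coding genes by name are Vmp1 and Tubd1, and neither overlaps the hairpin in that annotation.

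The arms were read at different brightness. rno-miR-21-5p had 2 probes of 10 spots each, and all of these spots were well above background on all 24 arrays. rno-miR-21-3p had 4 probes of 5 spots each, of which 1 was above background on 21 arrays, 1 on 10 arrays and the other 2 on 0 arrays. Only the first 2 of these were kept for its level. A 3p probe was above background in 6 of 6 control rats and in 5 of 6 rats of each exposed group, and the rats without one were female 27 at 600 ppm, female 33 at 1000 ppm and female 38 at 1500 ppm. The levels are log2 of the scaled signal, in which each array is divided by its own 75th percentile and dim spots are raised to a floor of 3.50 on the log2 scale. Of the 239 spots behind the 3p level, 95 (39.7%) lay at that floor, and at least 1 did in 23 of 24 rats. Because different probes read the arms, the size of the gap between their levels is not a molar ratio.

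The arrays lay on 3 slides of 8, which did not hold the groups evenly. Slide 1 held males at 0, 600 and 1000 ppm, slide 3 held females at 600, 1000 and 1500 ppm, and slide 2 held the control females, the 1500 ppm males, 1 female at 600 ppm and 1 male at 1000 ppm. Control and 1500 ppm rats of 1 sex never shared a slide. Slide 1 was the brightest, with a 75th percentile before scaling of 1068 ± 178, against 722 ± 42.3 for slide 2 and 858 ± 94.8 for slide 3 (SD, n = 8). Pairs of arrays correlated across miRNAs at r of 0.978 to 0.998, and none held identical values. All 8 miRNAs set as markers of lung epithelium, ciliated cells, endothelium and smooth muscle were above background on 24 arrays. Of 4 miRNAs of other organs set as dim in lung, miR-124-3p and miR-9a-5p, known from brain, were above background on 0. The other members, miR-122-5p (liver) and miR-375-3p (endocrine cells), were above background on 21 and 24 arrays.

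The level of rno-miR-21-5p, the guide strand, ran from 11.43 to 11.73 in the 6 control rats, with a median of 11.55 (log2). At 600 ppm it ran from 11.52 to 11.82 with a median of 11.62, and at 1000 ppm from 11.42 to 11.78 with a median of 11.61. At 1500 ppm it ran from 11.62 to 11.84 with a median of 11.77. All exposed groups overlapped the control group, and the 1500 ppm group overlapped it least, with 4 of its 6 rats above every control rat. The lowest level in the study belonged to male 11 at 1000 ppm and the highest to male 17 at 1500 ppm.

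**Figure D1:**
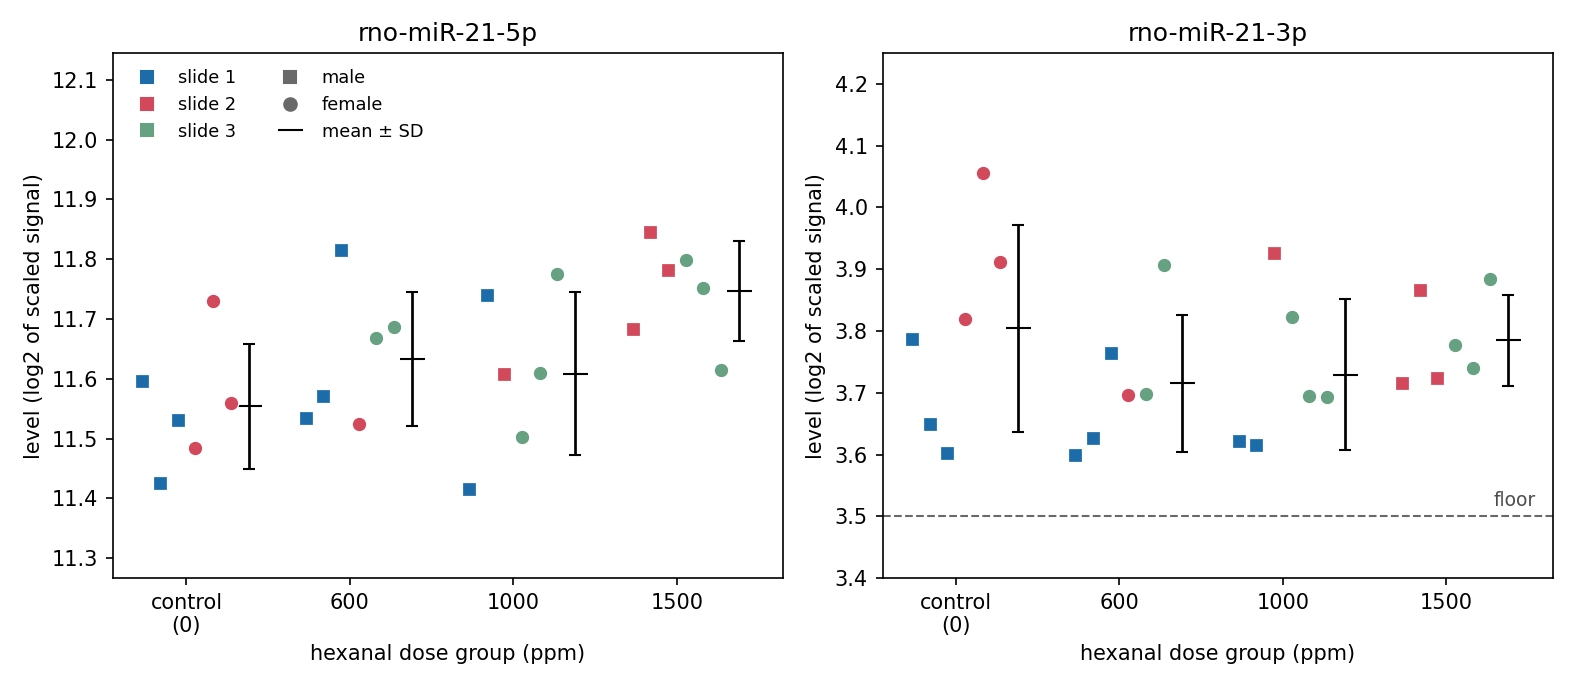
Level of each arm (log2 of scaled signal, vertical axis) in each rat by hexanal dose group in ppm (horizontal axis), with rno-miR-21-5p on the left and rno-miR-21-3p on the right. Squares are males, circles females, colours the 3 slides, and bars the mean ± SD (n = 6); the dashed line is the floor. The 5p levels at 1500 ppm (11.62 to 11.84) overlap those of control (11.43 to 11.73), and the 6 lowest 3p levels all belong to rats of slide 1. In the unscaled series table the 5p mean at 1500 ppm was below control instead.

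The mean level of rno-miR-21-5p was 11.55 ± 0.10 in control, 11.63 ± 0.11 at 600 ppm, 11.61 ± 0.14 at 1000 ppm and 11.75 ± 0.08 at 1500 ppm (log2, SD, n = 6). The order from low to high was therefore control, 1000, 600 and 1500 ppm, and the means at 1000 and 600 ppm differed by less than the SD of either. The 600 ppm mean differed from control by 0.079 ± 0.067 (log2, SE, 95% interval -0.060 to 0.22), and the 1000 ppm mean by 0.054 ± 0.067 (-0.085 to 0.19). Neither passed the test (limma, Benjamini-Hochberg adjusted p of 0.996 and 0.991), and 4 of 6 rats of each group lay above the control mean. In these comparisons 0% of the 283 tested miRNAs were called at an adjusted p below 0.05, with 5 and 17 miRNAs under an unadjusted p of 0.05.

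The largest of the 3 dose differences was at 1500 ppm, where the level was 0.19 ± 0.067 above control (log2, SE, 95% interval 0.052 to 0.33), or 1.14-fold. The unscaled series table put it 0.058 below control. Slide 1, the brightest before scaling, held 3 control rats and no rat at 1500 ppm, and its part in that value was not tested. In the scaled levels all 6 rats of the 1500 ppm group lay above the control mean. The difference did not pass over all 283 miRNAs (limma, unadjusted p = 0.0092, adjusted p = 0.325), a comparison in which 0% of miRNAs were called and 26 had an unadjusted p below 0.05. Between exposed groups, the 1500 ppm level was 0.11 ± 0.067 above 600 ppm and 0.14 ± 0.067 above 1000 ppm (limma, adjusted p of 0.470 and 0.596), with 0% of miRNAs called and 20 and 16 under an unadjusted p of 0.05. The test of any dose gave F = 2.88 (limma, adjusted p = 0.711), with 0% of miRNAs called and 15 under an unadjusted p of 0.05. The slope was 0.11 ± 0.043 per 1000 ppm (log2, limma, adjusted p = 0.333), again with 0% called and 29 miRNAs under an unadjusted p of 0.05.

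With slide fitted as a block the 1500 ppm difference of rno-miR-21-5p was 0.17 ± 0.074 (log2, SE, limma, adjusted p = 0.400). Within 1 slide and 1 sex, 5 of 7 differences were above 0. These 7 are not independent, since those of slide 3 share females and those of slide 1 share the control males. Against control males of slide 1, males at 600 ppm differed by 0.12 ± 0.099 (3 against 3 rats) and males at 1000 ppm by 0.061 ± 0.11 (2 against 3). The single 600 ppm female of slide 2 lay -0.067 ± 0.14 from the 3 control females beside it. On slide 3, females at 1500 ppm differed from those at 600 ppm by 0.044 ± 0.11 and from those at 1000 ppm by 0.093 ± 0.099, while those at 1000 ppm differed from those at 600 ppm by -0.049 ± 0.11 (log2, SE). The largest was that of the 3 males at 1500 ppm of slide 2 against the 1 male at 1000 ppm beside them, at 0.16 ± 0.14. The adjusted p of these within-slide differences lay between 0.692 and 0.998 (limma), and no slide gives a value for 1500 ppm against control in 1 sex. The 1500 ppm males and control females that shared slide 2 differed by 0.18 ± 0.099 (limma, adjusted p = 0.342), where dose and sex cannot be told apart.

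**Figure D2:**
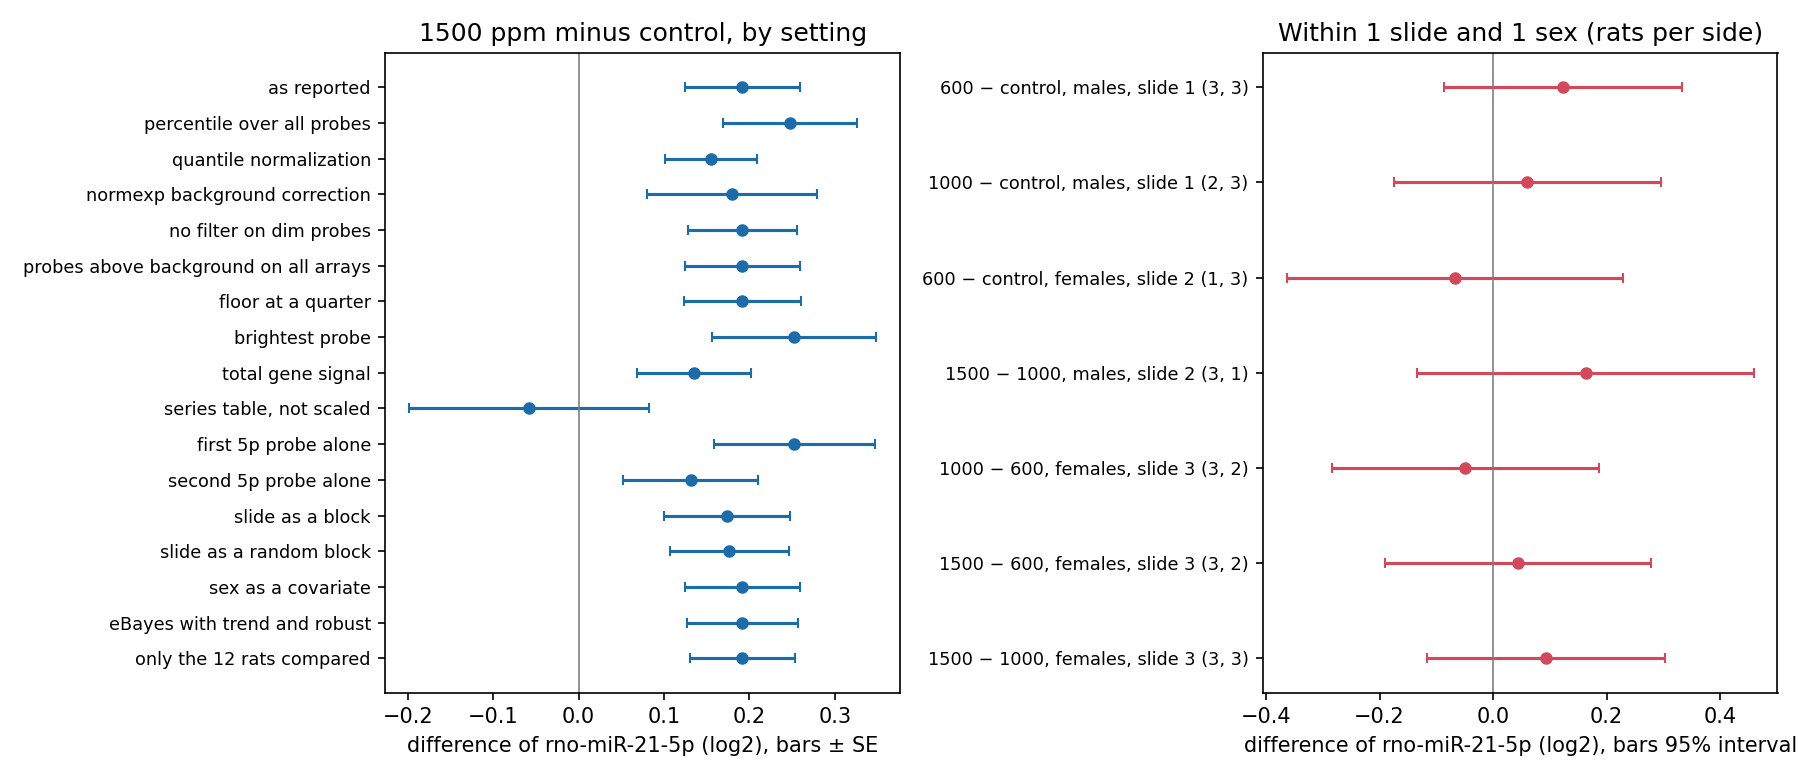
Difference of rno-miR-21-5p (log2, horizontal axes), on the left for 1500 ppm minus control under each setting of the processing or the fit (bars ± SE), and on the right between dose groups within 1 slide and 1 sex (bars 95% interval, rats per side in brackets). On the left the values lie between 0.13 and 0.25, except for the unscaled series table at -0.058. On the right every interval includes 0.

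The guide strand did not differ between the sexes by more than the spread between rats. Its level was 11.63 ± 0.14 in the 12 males and 11.64 ± 0.11 in the 12 females (log2, SD), a male minus female difference of -0.013 ± 0.048 whose sign turned under 8 of 14 other settings (limma, adjusted p = 0.837). In that comparison 43.8% of the tested miRNAs were called, and 10 miRNAs when slide was a block. The dose by sex interaction of rno-miR-21-5p gave F = 0.31 (limma, adjusted p = 0.864). For the interaction 25.1% of miRNAs were called, but limma with slide as a block called 0, with 12 under an unadjusted p of 0.05.

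Within males the 1500 ppm level of rno-miR-21-5p was 11.77 ± 0.08 against 11.52 ± 0.09 in control males (log2, SD, n = 3), a difference of 0.25 ± 0.098 that missed the threshold (limma, adjusted p = 0.0504). In the same comparison 36% of all tested miRNAs passed, and these males lay on slide 2 and the control males on slide 1, so dose and slide cannot be told apart there. Within females the 1500 ppm level was 11.72 ± 0.10 against 11.59 ± 0.13, a difference of 0.13 ± 0.098 (limma, adjusted p = 0.604), with 0% of miRNAs called and 39 under an unadjusted p of 0.05. The 1500 ppm females lay on slide 3 and the control females on slide 2, so dose and slide cannot be told apart there either. The male response at 1500 ppm exceeded the female one by 0.12 ± 0.14, which did not pass (limma, adjusted p = 0.515). Both responses cross slides. At 600 ppm the differences were 0.12 in males and 0.035 in females, with 0% and 0% of miRNAs called by limma and 15 and 29 under an unadjusted p of 0.05. At 1000 ppm they were 0.070 and 0.038, with 1.06% and 0% called and 24 and 51 under an unadjusted p of 0.05. None of these 4 values of the guide strand passed.

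The 2 probes of rno-miR-21-5p did not keep 1 ratio to each other across the slides. The first probe was 1.50 ± 0.026 times the second on slide 1, 2.11 ± 0.072 times on slide 2 and 1.83 ± 0.036 times on slide 3 (ratio of scaled signal, SD, n = 8). The 3 slides did not overlap in this ratio. On slide 2 the control females lay at 2.15 to 2.17, above the exposed rats of that slide at 1.95 to 2.14. On slide 1 the control males (1.50 to 1.52) overlapped the exposed males (1.46 to 1.52). On the log2 scale slide 2 exceeded slide 1 by 0.49, slide 3 exceeded slide 1 by 0.29 and slide 2 exceeded slide 3 by 0.20. Each pair gave an exact two-sided permutation p of 0.000155 (adjusted 0.000155), the smallest that 8 against 8 arrays can give. This was no property of miR-21 alone, since 81.2% of the 239 miRNAs with at least 2 kept probes were called for a probe difference between slides (limma F), and miR-21-5p ranked 46 by F among them. The test was chosen after the probe values were seen.

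**Figure D3:**
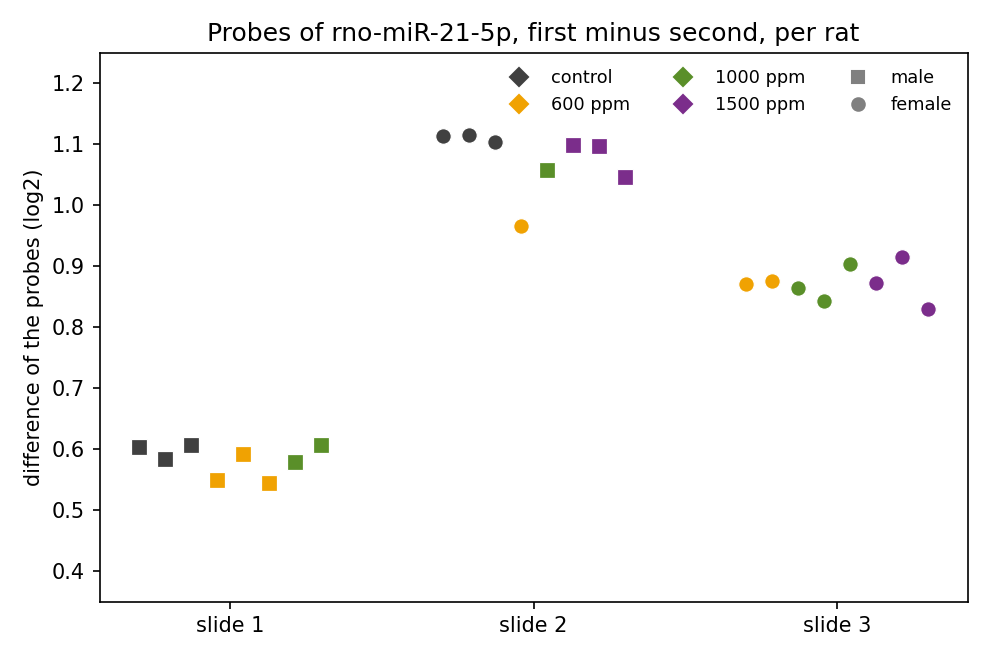
Difference between the first and the second probe of rno-miR-21-5p in each rat (log2, vertical axis) by slide (horizontal axis). Colours give the dose group, squares males and circles females. Slide 1 lies at 0.55 to 0.61, slide 3 at 0.83 to 0.91 and slide 2 at 0.97 to 1.12. On slide 2 the control females lie at 1.10 to 1.12, above the exposed rats of that slide.

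The probes also placed the dose groups differently. These groups lay unevenly on the slides between which the probe ratio differed. The first probe read 11.98 ± 0.21 in control, 12.00 ± 0.13 at 600 ppm, 12.01 ± 0.18 at 1000 ppm and 12.23 ± 0.12 at 1500 ppm (log2, SD, n = 6). The second read 11.13 ± 0.14, 11.27 ± 0.16, 11.20 ± 0.15 and 11.26 ± 0.08 in the same order. By the first probe the 1500 ppm group stood above both other exposed groups, and by the second it lay level with the 600 ppm group. The 1500 ppm difference from control was 0.25 by the first probe alone and 0.13 by the second alone (limma, adjusted p of 0.354 and 0.500). With slide in the fit, the difference between the probes did not pass for dose (limma F = 2.93, unadjusted p = 0.059, adjusted p = 0.842). Spots of 1 probe on 1 array differed by a median SD of 0.15 for the first probe and 0.063 for the second (log2), beside an SD of 0.13 between the 24 rats.

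The level of rno-miR-21-3p, the passenger strand, ran from 3.60 to 4.06 in control rats with a median of 3.80 (log2). At 600 ppm it ran from 3.60 to 3.91 with a median of 3.70, at 1000 ppm from 3.62 to 3.93 with a median of 3.69, and at 1500 ppm from 3.72 to 3.88 with a median of 3.76. The groups overlapped throughout, and the 3 highest 3p levels were those of 2 control females of slide 2 and of the 1000 ppm male on that slide. The means were 3.80 ± 0.17, 3.72 ± 0.11, 3.73 ± 0.12 and 3.78 ± 0.07 from control to 1500 ppm (SD, n = 6).

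The 3p differences from control were -0.089 ± 0.073 at 600 ppm (95% interval -0.24 to 0.063), -0.075 ± 0.073 at 1000 ppm (-0.23 to 0.077) and -0.019 ± 0.073 at 1500 ppm (-0.17 to 0.13). None passed (limma, adjusted p of 0.996, 0.966 and 0.943), the sign at 600 ppm turned with normexp background correction, and the sign at 1500 ppm turned under 4 of 13 other settings. Differences this close to the floor understate a change in RNA. The means of rno-miR-21-3p were 3.66 ± 0.07 on slide 1, 3.84 ± 0.13 on slide 2 and 3.78 ± 0.09 on slide 3 (log2, SD, n = 8), so that slide held 40.3% of its sum of squares, dose 9.85% and sex 17.9%. For rno-miR-21-5p the shares were 11.3% for slide, 32.3% for dose and 0.284% for sex. Because the slides held doses and sexes unevenly, these shares overlap and do not separate dose from slide. Rats of 1 sex and dose lay on different slides in 2 cases. The 1000 ppm male of slide 2 lay 0.31 ± 0.12 above the 2 of slide 1 (limma, adjusted p = 0.0761), a gap in the direction of the slide means. The 2 females at 600 ppm of slide 3 lay 0.11 ± 0.12 above the 1 of slide 2 (limma, adjusted p = 0.761), which is opposite to the slide means, and neither difference passed.

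The male minus female difference of the 3p level was -0.10 ± 0.048 (log2, SE, limma, adjusted p = 0.0929), and it turned to 0.029 ± 0.10 once slide was a block. Its dose by sex interaction did not pass (limma F = 1.39, adjusted p = 0.396). Control males and control females lay furthest apart, at 3.68 ± 0.10 and 3.93 ± 0.12 (SD, n = 3), and these lay on slides 1 and 2. At 1500 ppm the sexes lay at 3.77 ± 0.09 and 3.80 ± 0.07.

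The difference between the arms, 5p minus 3p in the same rat, compares the arms within an array, although the floor is set after scaling and so ties it to the scaling in part. It ran from 7.65 to 7.93 in control rats with a median of 7.73 (log2). It ran from 7.78 to 8.05 at 600 ppm (median 7.94), from 7.68 to 8.12 at 1000 ppm (median 7.85) and from 7.73 to 8.06 at 1500 ppm (median 8.00). The rats above every control rat numbered 4 of 6 at 600 ppm, 2 of 6 at 1000 ppm and 5 of 6 at 1500 ppm. Of these rats, female 27 at 600 ppm (7.97) and female 33 at 1000 ppm (8.08) had no 3p probe above background, so their arm difference rests on a 3p level that was not measured above background, as does that of female 38 at 1500 ppm (7.73). The 3 control females were the 3 lowest rats of the study.

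**Figure D4:**
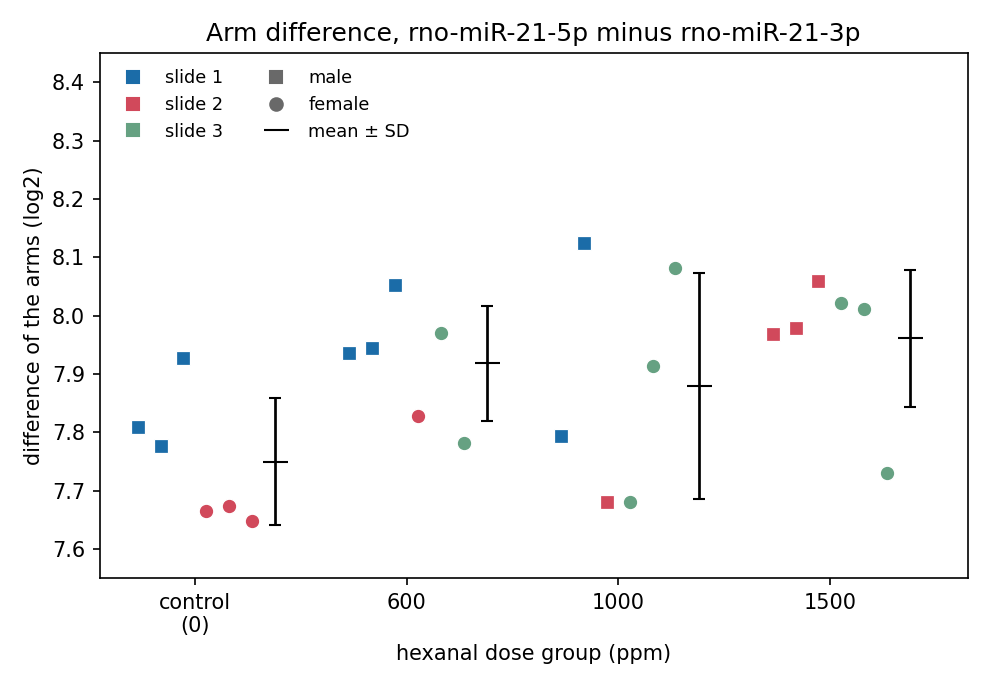
Difference between the arms (rno-miR-21-5p minus rno-miR-21-3p, log2, vertical axis) in each rat by hexanal dose group in ppm (horizontal axis). Squares are males, circles females, colours the slides, and bars the mean ± SD (n = 6). Control females of slide 2 lie at 7.65 to 7.67, below every other rat, and 5 of the 6 rats at 1500 ppm lie between 7.97 and 8.06; the sign of the 600 ppm difference turned with normexp background correction.

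The arm difference averaged 7.75 ± 0.11 in control, 7.92 ± 0.10 at 600 ppm, 7.88 ± 0.19 at 1000 ppm and 7.96 ± 0.12 at 1500 ppm (log2, SD, n = 6). It was larger than in control by 0.17 at 600 ppm and by 0.21 at 1500 ppm, and both passed an exact two-sided permutation test of 6 against 6 rats (p of 0.0173 and 0.0152, adjusted over the 3 doses 0.0260 and 0.0260), but the 600 ppm value had the opposite sign, -0.38, with normexp background correction. The 1000 ppm value of 0.13 did not pass (exact permutation p = 0.162). The arm difference was tested for miR-21 alone, so no share of calls over other pairs of arms stands beside these values. The slope was 0.13 per 1000 ppm (permutation test with 100000 draws, p = 0.0211). Both calls were lost with a lower floor, quantile normalization, the brightest probe, the second 5p probe alone and normexp correction, where the adjusted exact permutation p at 1500 ppm was 0.110, 0.0942, 0.123, 0.260 and 0.662. With the total gene signal in place of the processed intensity they were larger, at 0.53 and 0.40. Female 27 of the 600 ppm group carried most of that 600 ppm value, since its total 3p signal was listed at 0.1 against 6.43 to 9.62 in the other 5 rats, and without it the value was 0.23 (adjusted exact permutation p = 0.0357). Leaving out 1 control rat (male 2 or female 21, 22 or 23) ended both calls, with adjusted exact permutation p of 0.0552 to 0.0747.

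By arm, the values at 600 ppm were 0.079 for 5p and -0.089 for 3p, and at 1500 ppm 0.19 and -0.019. No value of a single arm passed (limma). The 3p value at 1500 ppm was smaller in size than its SE of 0.073, and its sign turned under 4 of 13 other settings. The share of 3p spots at the floor was 28.8% in control, 43.3% at 600 ppm, 46.7% at 1000 ppm and 40.0% at 1500 ppm, and its part in the arm difference was not tested. Within slide 1 the 3 males at 600 ppm (7.94 to 8.05) lay above the 3 control males (7.78 to 7.93), a difference of 0.14 with an exact permutation p of 0.10, the smallest that 3 against 3 rats allow. The 2 males at 1000 ppm of that slide differed from the control males by 0.12 (exact permutation p = 0.60). Within slide 2 the 1 female at 600 ppm lay 0.16 above the 3 control females, and the 3 males at 1500 ppm lay 0.32 above the 1 male at 1000 ppm (exact permutation p of 0.25 and 0.25, the smallest that 1 against 3 rats allow). Within slide 3 the females differed by 0.017 between 1000 and 600 ppm, by 0.046 between 1500 and 600 ppm and by 0.029 between 1500 and 1000 ppm (exact permutation p of 0.90, 0.70 and 0.90). Between slides, at 1 dose and sex, the 1000 ppm male of slide 2 lay -0.28 from the 2 of slide 1. Those 2 males ran from 7.79 to 8.12. The gap of that 1 rat was larger in size than both called dose differences, and the part of slide in it was not tested. The 600 ppm females of slide 3 lay 0.048 from the 1 of slide 2. With slide in the model and permutation within slides, the 1500 ppm value was 0.27 (adjusted permutation p = 0.0134) and the 600 ppm value 0.16 (adjusted permutation p = 0.103). That fit had no term for sex, and no slide held both groups in 1 sex. Slide 2 alone held both, with the 1500 ppm males 0.34 above the control females, where dose and sex cannot be told apart. The 1500 ppm value thus rests on no effect of sex and on slide effects that add to those of dose.

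The miRNA most like rno-miR-21-5p over the 24 arrays was rno-miR-511-3p (Pearson r = 0.67), followed by rno-miR-3559-5p (0.66), rno-miR-1839-5p (0.60), rno-miR-362-3p (0.56) and rno-miR-872-5p (0.56), beside a median r of 0.16 over all tested miRNAs. These arrays share slide and scaling, and with each slide's mean removed the 5 highest were rno-miR-511-3p (0.71), rno-miR-3559-5p (0.66), rno-miR-22-5p (0.61), rno-miR-290 (0.61) and rno-let-7b-5p (0.61). The first 2 names thus stood on both lists. The other arm was not near: rno-miR-21-3p ranked 101 with r = 0.26, and 152 with r = 0.12 once slide means were removed.

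The miRNAs most like rno-miR-21-3p were rno-miR-183-5p (0.70), rno-miR-342-5p (0.69), rno-miR-138-1-3p (0.69), rno-miR-328a-3p (0.67) and rno-miR-181b-5p (0.67). Slide held between 57.5% and 87.4% of the sum of squares of these 5. With slide means removed the list changed to rno-miR-142-3p (0.57), rno-miR-770-3p (0.52), rno-miR-138-1-3p (0.50), rno-miR-150-5p (0.49) and rno-miR-142-5p (0.49), of which miR-142 and miR-150 are known from leukocytes. The level of the leukocyte list, summed over its 4 tested members, ran from 3375 to 4999 in control, 3203 to 4026 at 600 ppm, 3249 to 4669 at 1000 ppm and 3184 to 4728 at 1500 ppm (scaled signal). Of these 4, 0 passed at any dose (limma), beside 0% of all 283 tested miRNAs. Against control 0 had an unadjusted p below 0.05, beside 5, 17 and 26 of the 283 at 600, 1000 and 1500 ppm. The part of leukocytes in the miR-21 levels was not tested.

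No tested miRNA passed against control at any single dose, those linked to lung injury included. Of 10 injury miRNAs that are known to rise in injured or fibrotic lung, 8 were tested, and 0 of 8 passed at any dose (limma), with 0, 0 and 1 under an unadjusted p of 0.05 at 600, 1000 and 1500 ppm. Over all 283 tested miRNAs 0% passed at each dose, with 5, 17 and 26 under an unadjusted p of 0.05. Their median difference from control was 0.12 at 600 ppm, 0.084 at 1000 ppm and 0.0059 at 1500 ppm, beside 0.024, -0.015 and 0.0021 over all 283 tested miRNAs (log2). The member with the smallest p was rno-miR-210-3p, which is known to be induced by hypoxia. Its level ran from 5.86 to 6.63 in control and from 6.57 to 7.00 at 1500 ppm, a difference of 0.50 ± 0.16 beside the 0.19 of rno-miR-21-5p (log2, SE, limma, adjusted p = 0.199). All 8 rats of slide 1, at control, 600 and 1000 ppm, lay at 5.86 to 6.17, below the 6.40 to 7.00 of slide 2 and the 6.39 to 6.84 of slide 3. Slide 1 held 3 of the 6 control rats and 0 at 1500 ppm, and with slide as a block the difference was 0.25 ± 0.082 (limma, adjusted p = 0.325). rno-miR-210-3p also passed for sex (-0.32 ± 0.090, male minus female, limma, adjusted p = 0.00756) and for dose by sex (limma, adjusted p = 0.00984), as did 43.8% and 25.1% of all tested miRNAs. With slide as a block rno-miR-210-3p passed for neither (limma, adjusted p of 0.662 and 0.765). The other named member, rno-miR-146b-5p, a feedback regulator of inflammatory signalling, stood at 8.39 ± 0.32 in control and 8.14 ± 0.23 at 1500 ppm (SD, n = 6), a difference of -0.25 ± 0.16 (limma, adjusted p = 0.511).

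All 11 members of the list known to fall in lung fibrosis (let-7d, miR-29, miR-200, miR-30a, miR-26a, miR-326 and miR-101a) were tested, and 0 of 11 passed at any dose (limma), with 1, 0 and 0 under an unadjusted p of 0.05. Beside these stand 0% of all 283 tested miRNAs called, and 5, 17 and 26 under an unadjusted p of 0.05. Their median difference was 0.053 at 600 ppm, 0.042 at 1000 ppm and 0.098 at 1500 ppm (log2). The smallest p values belonged to rno-miR-200b-3p, an epithelial miRNA, and rno-miR-30a-5p. rno-miR-200b-3p differed from control by 0.069 ± 0.054 and rno-miR-30a-5p by 0.098 ± 0.060 at 1500 ppm (log2, SE, limma, adjusted p of 0.590 and 0.500). The highest difference of this list at 1500 ppm was 0.17. The miR-21 guide strand lay at 0.19 ± 0.067 (SE), and the gap between these values was smaller than that SE.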

How the data were processed

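Per the file headers, the authors deposited 1 scanner file per array (Agilent Feature Extraction 11.5.1.1, build rn4), whose processed intensity is spot brightness corrected for local background. The deposited series table holds intensity values equal to the total gene signal of Feature Extraction, not scaled between arrays. The study's methods state no procedure for these arrays.

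Control and outlier spots were left out. Each array was scaled so that its 75th percentile over the 394 probes detected on every array became 865, signals below 11.3 were raised to that floor (the typical lowest scaled signal still called well above background), and values went to log2. Spots and then probes were averaged. Probes needed a majority of spots well above background on 6 or more of the 24 arrays, and 555 probes of 283 miRNAs remained.

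Tests used limma 3.58.1 in R 4.3.3, with Benjamini-Hochberg adjustment over 283 miRNAs and 0.05 as the threshold. The groups shared 1 fit with no covariate. The fit was checked on simulated data without slide effects, whose changes were larger than the dose differences of either arm. That check does not cover differences as small as those reported. Folding used ViennaRNA 2.7.2. All tests were two-sided. The precision of a group mean is limited by its number of arrays.

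The members, lists and tests were chosen with earlier results of these data known. Named miRNAs were both arms, the 2 members of the injury and fibrosis lists with the smallest any-dose p, and the 5 most correlated with each arm. Alternatives covered scaling, background, filter, floor, probes, summary, slide, sex and each rat left out. Normexp correction with an offset of 50 used the median brightness, since the mean brightness column is not used here. Fits of each 5p probe alone, and of the total gene signal without female 27, were added after seeing the data.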

Additional observations from a re-analysis of the deposited data

Results flagged for a closer look

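The difference between the arms in female 38 of the 1500 ppm group was 7.73 (log2), against 8.01 ± 0.04 (SD) in the other 5 rats of that group. Its gap to the nearest rat was 0.723 of the group's whole range, above the 95% critical value of Dixon for 6 samples. This rat had the lowest 5p level and the highest 3p level of its group, and no 3p probe of it was above background. Of 12 sets of 6 rats examined, 1 held such a rat, and about 1 in 20 would by chance, or 0.6 of 12.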

How the results depend on the processing

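No dose comparison of rno-miR-21-5p or rno-miR-21-3p alone passed the threshold under any setting run. Signal over background limits the 3p level, with 39.7% of its spots at the floor, and the cause of each change of sign or call was not tested. Values are log2 differences, or slopes per 1000 ppm. With the percentile over all probes, the 3p arm gave 0.018 at 1500 ppm and a slope of 0.015, and the 5p male minus female value was 0.028. With quantile normalization these 3 were 0.0064, 0.0098 and 0.0040, and the arm difference no longer passed at 600 ppm (0.16), 1500 ppm (0.15) or for the slope (0.087). With normexp correction the 3p arm gave 0.39 at 600 ppm, 0.073 at 1500 ppm and -0.31 for 1500 minus 600 ppm, the 5p sex difference was 0.031, and the arm difference was -0.38 at 600 ppm, 0.11 at 1500 ppm and 0.16 for the slope, none past the threshold. With the lower floor the arm difference was 0.18 and 0.24 at 600 and 1500 ppm without passing. With the brightest probe the 3p arm gave 0.080 at 1500 ppm and a slope of 0.059, and the arm difference missed the threshold at 600 ppm (0.13), 1500 ppm (0.17) and for the slope (0.095).

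With the total gene signal, the 3p arm gave -0.012 for 1500 minus 1000 ppm and 0.26 for male minus female, the 5p sex difference was 0.075, and the arm slope of 0.22 did not pass (0.27 without female 27, which passed, adjusted permutation p = 0.00292, a choice made after seeing the data). In the unscaled series table the 5p arm gave -0.00090 at 600 ppm, -0.058 at 1500 ppm, -0.057 for 1500 minus 600 ppm, -0.17 for 1500 minus 1000 ppm and a slope of -0.013, the 3p arm gave -0.26 for 1500 minus 1000 ppm, the sex differences were 0.17 (5p) and 0.47 (3p), and the arm slope of 0.19 did not pass. With the first 5p probe alone the arm difference at 600 ppm (0.11) did not pass. With the second alone the 5p arm gave -0.0090 for 1500 minus 600 ppm and 0.083 for sex, and the arm difference of 0.23 at 600 ppm, 0.15 at 1500 ppm and 0.086 for the slope did not pass. With slide as a block the 3p arm gave -0.019 for 1500 minus 600 ppm, -0.0066 for 1500 minus 1000 ppm and 0.029 for sex, the 5p sex difference was 0.069, and the 600 ppm arm difference of 0.16 did not pass. With slide as a random block the 3p arm gave -0.0061 for 1500 minus 600 ppm and the 5p sex difference was 0.027.

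Leaving out 1 rat at a time turned the sign of the 3p arm at 1500 ppm (-0.060 to 0.031), of its slope (-0.033 to 0.022) and of the 5p sex difference (-0.033 to 0.0064). It moved the 3p sex difference between -0.13 and -0.079, past the threshold without male 13 at 1000 ppm. The arm difference stayed between 0.14 and 0.20 at 600 ppm and between 0.19 and 0.26 at 1500 ppm.

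The sex difference called 5 miRNAs with normexp, 77 with no filter, 10 with slide as a block and 0 with slide as a random block, and the interaction called 0, 0 and 0 with normexp, the block and the random block (limma). With sex as a covariate, 2 miRNAs were called for 1500 minus 600 ppm and 3 for the slope. No paired analysis was possible because the groups share no replicate numbers.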
